A study of Mus musculus with 18 samples.

Results

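Proteasome genes were examined in RNA of the striatum, sequenced from 18 mice that were 12 to 14 months old, from a Huntington's disease (HD) model with and without loss of an allele of the kinase CK2a'. The genes were all protein-coding rows of the count table whose mouse symbol begins with Psma, Psmb, Psmc, Psmd, Psme, Psmf or Psmg and a digit, and whose counts sum to at least 100 over the 18 libraries. Of the 55421 genes in the table, 54 had such a symbol, 50 of these were protein coding and 47 reached the minimum. Psma8, a testis form of an alpha subunit, lay on the threshold with 100 counts. Psmd10 with 17 counts, the thymic subunit gene Psmb11 with 14 and Psme2b with 0 lay under it. Another 4 genes with a matching symbol were pseudogenes, with 0 to 15 counts, and were left out. Psmc3ip has a matching symbol but codes for a meiotic recombination protein, not a proteasome subunit, and is counted as a member only because the rule is by symbol. Of the 47 members, 46 had enough counts to be tested and Psma8 did not.

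There were 5 WT mice, 5 zQ175 HD mice, 3 CK2a'(+/-) mice and 5 zQ175:CK2a'(+/-) mice, with 1 library per mouse. zQ175 mice carry an expanded CAG repeat knocked into the full-length mouse Htt gene, on 1 allele by the study's methods, under the gene's own promoter. CK2a'(+/-) mice lack 1 allele of Csnk2a2, which codes for the catalytic CK2a' subunit of casein kinase 2, and zQ175:CK2a'(+/-) mice have both changes. The labels give C57BL/6 as the strain of every mouse, and by the study's methods the CK2a'(+/-) line came from a mixed 129/SvEv-C57BL/6J background and was bred to C57BL/6J over many generations. The methods also state that both sexes were used in unequal ratios between the groups, and the labels give no sex for a library.

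The proteasome is the large protease that breaks down proteins tagged with ubiquitin, including many misfolded proteins, and its capacity has long been studied in HD because mutant huntingtin accumulates in ubiquitin-positive inclusions. Its 20S core is a barrel of alpha and beta rings in which a few beta subunits cut proteins. Its 19S regulatory particle, made of an ATPase base and a lid of non-ATPase subunits, binds, unfolds and feeds substrates into the core. In immune cells and after interferon, inducible beta subunits replace the constitutive catalytic ones, and the activators Psme1 and Psme2 can take the place of the 19S particle. Transcription of most subunit genes can be raised together by the factor Nfe2l1 through antioxidant response elements.

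No member passed an adjusted p under 0.1 in any comparison with edgeR's quasi-likelihood test, while 7 constitutive beta subunits of the 20S core had lower mean levels in zQ175 than in WT mice, by a median of -0.28 on the log2 scale. All 7 also had lower mean levels in CK2a'(+/-) than in WT mice, by a median of -0.21, and 6 of 7 did in zQ175:CK2a'(+/-) mice, by -0.15, all against the same 5 WT mice. Lower means were not confined to this ring. In the order zQ175, CK2a'(+/-) and zQ175:CK2a'(+/-), 34, 40 and 33 of the 46 tested members were lower, against 49.4%, 51.1% and 51.5% of all genes. The 4 chaperones of core assembly had medians of -0.34, -0.25 and -0.31 in that order. The values below describe which subunits these were, in which mice, and how far the groups overlapped.

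The start regions of 3 subunit genes are shown first as examples of the sequence before a core subunit gene (Psmb6 and Psmb5) and a base subunit gene (Psmc1). They were chosen after their values were seen, so their motifs say nothing about the differences between groups. Each stretch is the 150 bases before the start that the RefSeq promoter table uses, which for Psmb6 lies a few bases before the gene start annotated in GENCODE, read 5′ to 3′ on the gene's strand, on GRCm38.p6. Capitals mark matches to the core of the antioxidant response element, TGANNNNGC, to the CCAAT box or to the GC box GGGCGG, on either strand.
Psmb6, chr11:70525207-70525356, plus strand: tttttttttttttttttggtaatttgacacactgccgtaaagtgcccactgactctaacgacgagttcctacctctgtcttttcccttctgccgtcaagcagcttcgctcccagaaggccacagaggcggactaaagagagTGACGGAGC
Psmb5, chr14:54618023-54618172, minus strand: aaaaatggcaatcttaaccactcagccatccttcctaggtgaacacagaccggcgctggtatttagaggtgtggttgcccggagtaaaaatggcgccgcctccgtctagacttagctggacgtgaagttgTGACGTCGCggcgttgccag
Psmc1, chr12:100110004-100110153, plus strand: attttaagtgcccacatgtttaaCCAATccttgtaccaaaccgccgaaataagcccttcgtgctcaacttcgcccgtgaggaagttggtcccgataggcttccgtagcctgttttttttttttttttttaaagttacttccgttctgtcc
Over the whole window of 250 bases before to 50 bases after the start, a promoter was found for 39 of the 47 members. The antioxidant core was held by 22 of these 39 (56.4%), against 41.4% of all 27025 promoters in the table. The GC box was held by 22 (56.4%, against 35.9%) and the CCAAT box by 13 (33.3%, against 37.9%). All 4 constitutive beta subunits with a promoter entry (Psmb3, Psmb4, Psmb5 and Psmb6) held the antioxidant core, as did 4 of 7 alpha subunits, 1 of 5 ATPases (Psmc6) and 4 of 9 non-ATPase subunits of the 19S particle. It was also held by both base chaperones (Psmd5 and Psmd9), 2 of 3 inducible subunits, 2 of 5 genes of the activators and inhibitor, and 2 of 3 core chaperones. Of the members lower in zQ175 than in WT mice at an unadjusted p under 0.05, Psma7, Psmb3, Psmb4, Psmb5, Psmb6, Psmb8 and Psmg4 held the core. Psma2 and Psmc4 did not, and Psmb2 had no promoter entry. Psmd5, the higher one at that threshold, also held it, and a link between core and difference was not tested. Matches of different motifs may share bases and each is then counted, and a match is not evidence of binding.

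Total counts per library ranged from 13612381 to 22702547, and the share of counts on mitochondrially encoded genes from 19% to 26%. Levels are given as CPM, a gene's counts per 1000000 counts of a library whose total was corrected for composition by TMM. Csnk2a2 followed the labels, at 14.7 to 19.9 CPM in the 8 mice with 1 allele and at 29.4 to 37.5 CPM in the 10 with both. The 10 listed markers of striatal projection neurons summed to 1591 to 6870 CPM over the 18 mice and the 7 of cortical excitatory neurons to 23.8 to 331 CPM. zQ175 replicate 5 stood apart, with 331 CPM over the cortical markers against 60.9 to 93.9 CPM in the other zQ175 mice and 23.8 to 61.5 CPM in the other groups. Without it, the number of genes of any kind that passed between zQ175 and WT mice went from 230 to 0.

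In level, the proteasome genes were well expressed. Scaled by exon length, the median over the 46 tested members was 12.7 CPM per kb, against 2.68 over all genes tested, and 41 members lay above that median of all genes. Exon length sums all annotated exons of a gene, so that rankings per kb between genes depend on the annotation. Among the 19S ATPases, Psmc5 was highest at 43.3 ± 3.38 CPM per kb (SD, n = 18 mice) and Psmc2 lowest at 9.04 ± 1.04. Psmc1 at 43.2 ± 4.18 CPM per kb did not differ from Psmc5 beyond its spread. Among the non-ATPase subunits the ubiquitin receptor gene Psmd4 was highest, at 32.3 ± 3.91 CPM per kb, and Psmd11 lowest, at 6.07 ± 0.632. In the alpha ring Psma6 led with 28.8 ± 2.91 CPM per kb, and Psma8 had 0.124 ± 0.105. In the constitutive beta ring Psmb6 led with 23 ± 3.35 CPM per kb, and Psmb3 was lowest with 8.38 ± 1.81.

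Each of the 3 inducible subunit genes was below the genes just named other than Psma8. Psmb10 had 3.19 ± 0.938 CPM per kb, Psmb8 had 0.792 ± 0.35 and Psmb9 had 0.139 ± 0.113. Among the activators and the inhibitor, the nuclear activator gene Psme3 was highest at 20.5 ± 1.54 CPM per kb and the inhibitor gene Psmf1 lowest at 2.78 ± 0.324. Among the chaperones that assemble the core, Psmg4 had 15.7 ± 2.89 and Psmg3 1.66 ± 0.458 CPM per kb. Psmd5 and Psmd9, chaperones of the 19S base, had 4.18 ± 0.411 and 1.75 ± 0.184 CPM per kb.

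**Figure D1:**
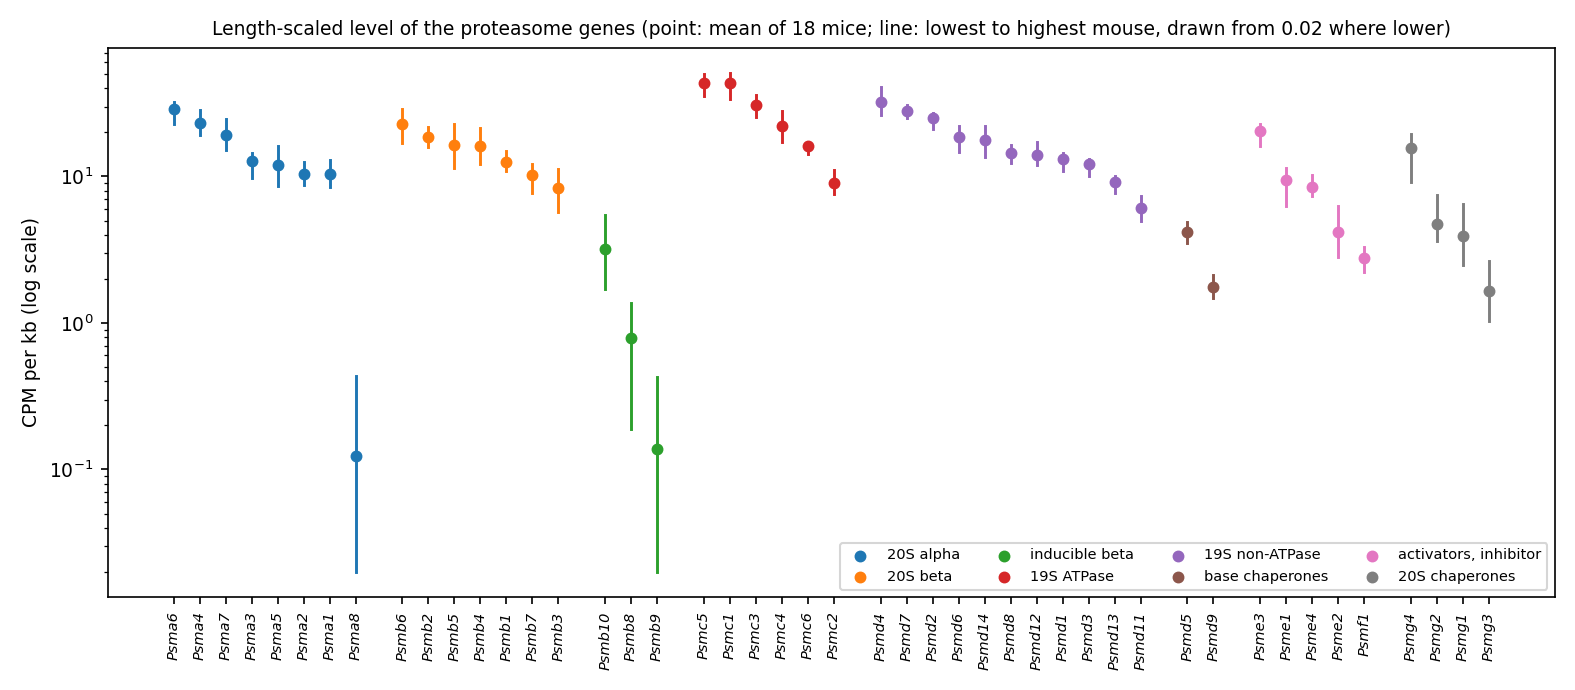
Length-scaled level of each proteasome gene on a log axis (CPM per kb of exon), grouped by role; points are means over 18 mice and lines run from the lowest to the highest mouse, cut off at the bottom where a mouse was at 0 or close to it. The inducible subunits Psmb8 and Psmb9 and the testis form Psma8 lie below 1 CPM per kb on average, and every constitutive core and 19S subunit lies above 6.

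By group, Psmc5 averaged 63.3 ± 4.89 CPM in WT (SD, n = 5), 60.3 ± 6.37 in zQ175 (n = 5), 58.7 ± 2.62 in CK2a'(+/-) (n = 3) and 58.6 ± 3.11 in zQ175:CK2a'(+/-) mice (n = 5). Psmc2 averaged 46 ± 7.02, 46.9 ± 2.98, 41.0 ± 4.20 and 46.2 ± 5.59 CPM in the same order. Psma6 averaged 38.3 ± 1.28 CPM in WT, 34.8 ± 4.27 in zQ175, 33.1 ± 5.55 in CK2a'(+/-) and 34.9 ± 2.05 in zQ175:CK2a'(+/-) mice. Of these 3 abundant subunits, Psma6 alone had groups without overlap in a comparison made here, with zQ175:CK2a'(+/-) mice at 31.6 to 36.7 CPM and WT mice at 36.8 to 39.8 CPM. Psmd11 averaged 37.9 ± 2.80 CPM in WT, 41.9 ± 4.53 in zQ175, 34.6 ± 3.30 in CK2a'(+/-) and 38.9 ± 3.05 in zQ175:CK2a'(+/-) mice. Psme3 averaged 60.4 ± 2.01, 60.8 ± 5.71, 57.6 ± 8.58 and 62.4 ± 1.68 CPM, and Psmf1 averaged 18.6 ± 2.96, 17.2 ± 2.14, 17.7 ± 0.635 and 18.1 ± 1.90 CPM, in the same order of groups. The ranges of Psmd11, Psme3 and Psmf1 overlapped between all 4 genotypes. Psmd9 averaged 13.6 ± 1.23 CPM in WT, 12.1 ± 1.02 in zQ175, 12.7 ± 2.23 in CK2a'(+/-) and 12.3 ± 0.921 in zQ175:CK2a'(+/-) mice. Psma8 averaged 0.226 ± 0.156, 0.171 ± 0.130, 0.368 ± 0.351 and 0.493 ± 0.337 CPM in the same order, a level too low to test.

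The first comparison asked how the zQ175 allele goes with proteasome transcripts. Between zQ175 and WT mice, 34 of the 46 tested members (73.9%) had the lower mean in zQ175, against 49.4% of all 20914 genes tested, and the median log2 fold change of the members was -0.110 against 0.004 for all genes. With edgeR, 0 members passed an adjusted p under 0.1, a call made for 1.1% of all genes, and with DESeq2 1 did, Psmb6, against 5.26% of the genes to which DESeq2 gave an adjusted p. At an unadjusted p under 0.05, 10 members (21.7%) were lower, against 7.1% of all genes, and 1 (2.17%) was higher, against 6.79%. Not a single member had zQ175 and WT groups without overlap, which 2.44% of all genes had. The 10 lower ones were Psma2, Psma7, Psmb2, Psmb3, Psmb4, Psmb5, Psmb6, Psmb8, Psmc4 and Psmg4, and the higher one was Psmd5.

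By role, all 7 constitutive beta subunits were lower in zQ175 mice, with log2 fold changes from -0.46 (Psmb3) to -0.06 (Psmb1) and a median of -0.28, and 5 of them had an unadjusted p under 0.05. Of the 7 alpha subunits 6 were lower, with a median of -0.15. The 4 chaperones that build the core were all lower, with a median of -0.34. The 6 ATPases had a median of -0.07 and the 11 non-ATPase subunits a median of -0.02, with 4 and 7 of them lower. The 2 base chaperones had a median of 0.02 and the 5 activators and inhibitor a median of -0.05. The difference between these roles was not tested, since the roles are small and their genes share the same libraries.

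Psmb6 was at 50.2, 41.8, 50.1, 53.9 and 52.4 CPM in the 5 WT mice and at 37.7, 45.1, 39.4, 35.9 and 38.1 CPM in the 5 zQ175 mice. It was at 39.95, 39.4 and 49.6 CPM in the 3 CK2a'(+/-) mice and at 41.1, 45.3, 31.4, 46.4 and 38.8 CPM in the 5 zQ175:CK2a'(+/-) mice. Psmb6 (GRCm38 chr11:70525367-70527858, plus strand) codes for the caspase-like catalytic subunit, whose promoter stretch is printed above. WT replicate 2 was the lowest WT mouse, and zQ175 replicate 2 was the only zQ175 mouse above it. The log2 fold change was -0.34 ± 0.106 (SE), with an edgeR adjusted p of 0.152 and a DESeq2 adjusted p of 0.0751. Without WT replicate 2 the log2 fold change was -0.41 and the edgeR adjusted p 0.0592.

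Psmb5 was at 11.7, 13.2, 19.3, 19.5 and 20.5 CPM in the 5 WT mice and at 13.5, 15.1, 11.9, 11.9 and 11.8 CPM in the 5 zQ175 mice. It was at 12.5, 10.4 and 17.0 CPM in the 3 CK2a'(+/-) mice and at 16.6, 14.9, 13.3, 15.9 and 16.8 CPM in the 5 zQ175:CK2a'(+/-) mice. Psmb5 (chr14:54614119-54618022, minus strand) codes for the chymotrypsin-like subunit, the main target of proteasome inhibitor drugs. The WT mice split, with replicates 1 and 2 at the level of the zQ175 mice and the other 3 WT mice above every zQ175 mouse. Psmb5 had a log2 fold change of -0.39 ± 0.160, with an edgeR adjusted p of 0.279.

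Psmb3 was at 21.8, 18.3, 25.7, 23.8 and 22.6 CPM in the 5 WT mice and at 13.2, 21.1, 16.1, 15.7 and 15.4 CPM in the 5 zQ175 mice. It was at 13.8, 17.0 and 23.4 CPM in the 3 CK2a'(+/-) mice and at 14.5, 22.7, 15.2, 24.0 and 22.5 CPM in the 5 zQ175:CK2a'(+/-) mice. Psmb3 (chr11:97703399-97713500, plus strand) is a structural subunit of the beta ring. In zQ175 mice 4 of the 5 values lay below every WT mouse, and 2 of the zQ175:CK2a'(+/-) mice were as low while the other 3 were level with the WT mice. The log2 fold change between zQ175 and WT was -0.46 ± 0.167 (edgeR adjusted p = 0.209).

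Psmb4 was at 36.5, 29.7, 31.8, 35.0 and 38.4 CPM in the 5 WT mice and at 25.7, 30.9, 30.9, 30.1 and 23.7 CPM in the 5 zQ175 mice. It was at 28.4, 30.1 and 41.9 CPM in the 3 CK2a'(+/-) mice and at 29.0, 31.1, 32.2, 34.3 and 27.6 CPM in the 5 zQ175:CK2a'(+/-) mice. Psmb4, another structural beta subunit, overlapped between zQ175 and WT mice only from the lowest WT mouse at 29.7 CPM to the highest zQ175 mouse at 30.9 CPM. Its log2 fold change was -0.28 ± 0.114 (edgeR adjusted p = 0.277), and the highest single value of the 18 mice was in CK2a'(+/-) replicate 3.

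Psmb7 was at 37.2, 33.3, 38.2, 37.9 and 41.9 CPM in the 5 WT mice and at 36.1, 36.0, 31.2, 34.3 and 33.3 CPM in the 5 zQ175 mice. It was at 27.3, 31.0 and 35.8 CPM in the 3 CK2a'(+/-) mice and at 39.6, 26.3, 36.9, 37.7 and 32.6 CPM in the 5 zQ175:CK2a'(+/-) mice. Psmb7 codes for the trypsin-like subunit, the remaining constitutive catalytic one. Of the WT mice replicate 2 alone lay inside the zQ175 range of 31.2 to 36.1 CPM, and 11.8% of the exon bases of Psmb7 overlap Nek6 on the opposite strand. Its group means were 37.7 ± 3.04 CPM in WT and 34.2 ± 2.06 CPM in zQ175 mice (SD, n = 5 each).

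**Figure D2:**
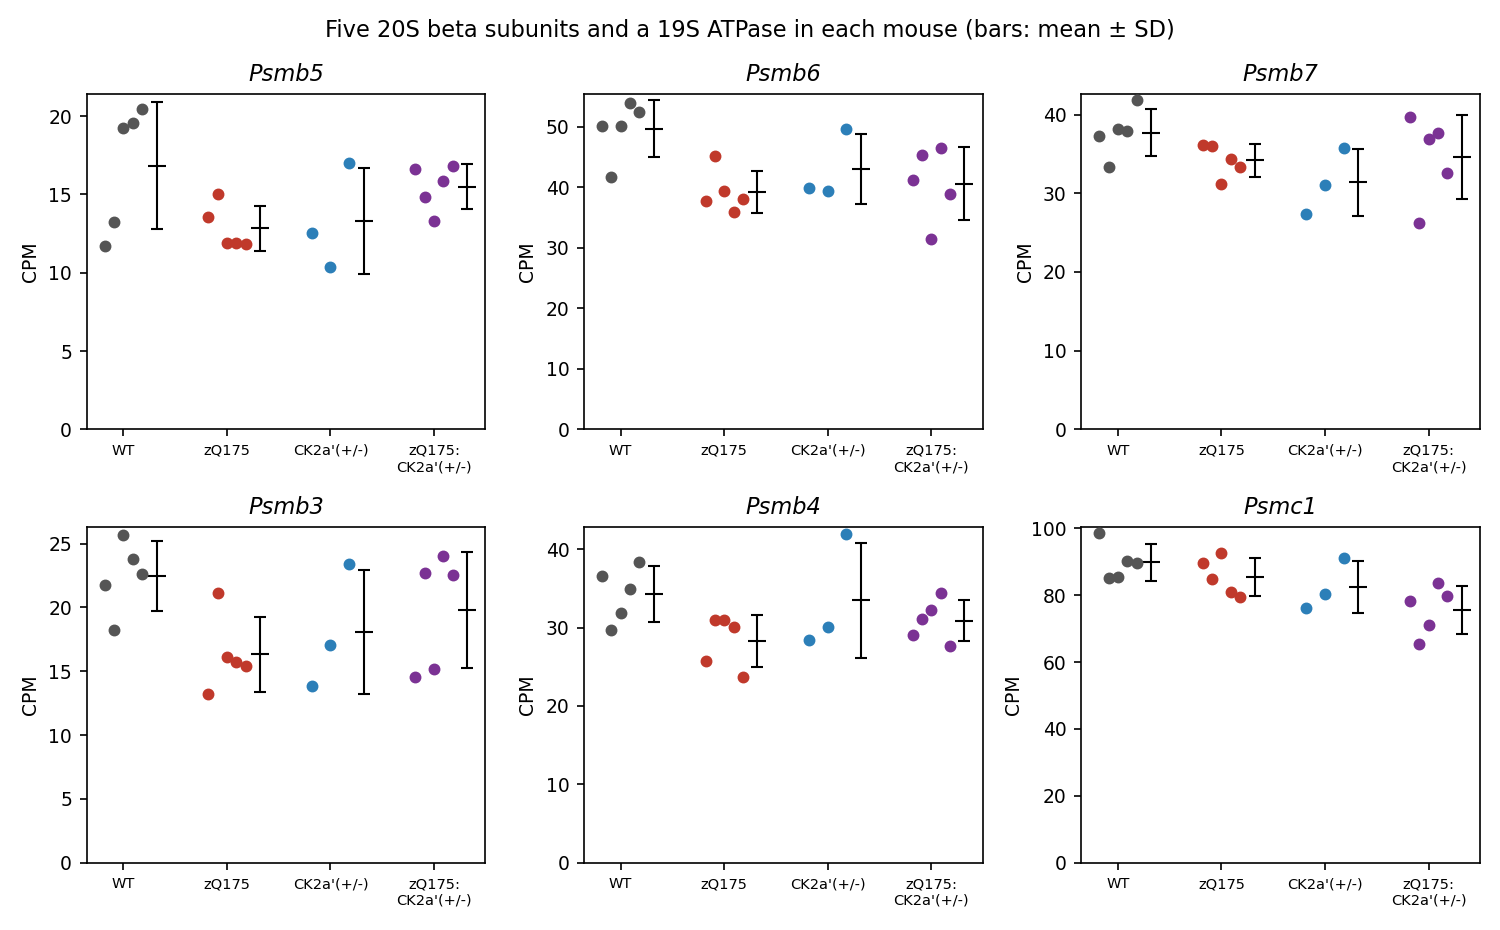
Level of 5 constitutive beta subunits and the ATPase Psmc1 in each mouse (points, CPM, axis from 0) in the 4 groups, with the mean ± SD of each group beside them. Psmb6, Psmb3 and Psmb4 average lower in zQ175 than in WT mice with overlapping ranges, and CK2a'(+/-) replicate 3 is the highest of its group in all 6 genes.

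Of the other lower members, Psma7 had a log2 fold change of -0.26 ± 0.123, Psmc4 of -0.23 ± 0.101, Psmb2 of -0.22 ± 0.0898 and Psma2 of -0.18 ± 0.082, with edgeR adjusted p from 0.287 to 0.356. Psmd5, a chaperone of the 19S base that binds an ATPase before assembly, was the member with a higher mean at an unadjusted p under 0.05, at 33.2 ± 1.91 CPM in zQ175 and 28.7 ± 2.32 CPM in WT mice. Its log2 fold change of 0.21 ± 0.0897 had an edgeR adjusted p of 0.312. The median SE of a member's log2 fold change was 0.102 in this comparison, against 0.211 for all genes, so that most members were measured more finely than a typical gene.

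Markers of several cell types differed between these groups. In zQ175 mice the summed level of the 10 striatal projection neuron markers was 1591 to 3229 CPM, against 2910 to 6870 CPM in WT mice, with all 10 lower and 3 past an adjusted p under 0.1. These were Adora2a, Penk and Ppp1r1b, with log2 fold changes of -1.12, -1 and -0.85. The 6 oligodendrocyte markers summed to 3525 to 5302 CPM in zQ175 and 5399 to 7459 CPM in WT mice, without overlap, and 4 of 6 passed, among them Mbp (-0.58) and Mobp (-0.60). Of 7 tested microglia markers C1qa passed (-0.64), of 6 tested cortical markers Tbr1 passed (1.27), and of 6 astrocyte and 5 endothelial markers 0 passed with edgeR, with 0 and 1 at an unadjusted p under 0.05. With DESeq2 the calls in these lists were 4 striatal (Rgs9 in addition), 4 oligodendrocyte, 1 microglia and 2 cortical markers, and 0 astrocyte and endothelial markers. No listed marker was at 0 in any group. In bulk tissue, fewer cells of a type and less RNA per cell cannot be told apart, and the part of these cell type markers in the proteasome values was not tested. Without zQ175 replicate 5, the median of the members was -0.102 and 6 members were lower at an unadjusted p under 0.05, beside 6.57% of all genes lower and 5.76% higher. Without WT replicate 5 these counts went to 2 lower members, beside 6.57% of all genes, and a median of -0.081, and without WT replicate 2 the median was -0.163 and 2 members passed an adjusted p under 0.1, Psmb6 and Psmd4, in a fit that called 587 genes (2.82%). The 11 members at an unadjusted p under 0.05 in either direction went to 6 without WT replicate 3 or 4, to 7 without zQ175 replicate 1 or 5, to 5 without zQ175 replicate 4 and to 7 when only these 2 groups were fitted, in fits where 11.4% to 14% of all genes were at that threshold.

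The second comparison asked how proteasome genes stood in zQ175 mice with 1 CK2a' allele, relative to the same WT mice. In zQ175:CK2a'(+/-) mice 33 of 46 members (71.7%) had the lower mean, against 51.5% of all genes, and the members' median was -0.106 against -0.009. With edgeR 0 members passed, against 0.0143% of all genes, and with DESeq2 0 did, against 0.725% (123 genes) of those with an adjusted p. At an unadjusted p under 0.05, 8 members (17.4%) were lower, against 4.85% of all genes, and 0 were higher, against 4.27%. In 3 members (6.52%) the groups did not overlap, against 1.84% of all genes. Those 3 were Psma6, Psmb2 and Psmc1, of which Psma6 and Psmb2 were singled out after their values were seen.

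Psmc1 was at 98.7, 85.2, 85.3, 90.3 and 89.6 CPM in the 5 WT mice and at 89.6, 84.8, 92.6, 80.8 and 79.5 CPM in the 5 zQ175 mice. It was at 76.1, 80.2 and 91.2 CPM in the 3 CK2a'(+/-) mice and at 78.1, 65.5, 71.2, 83.8 and 79.6 CPM in the 5 zQ175:CK2a'(+/-) mice. Psmc1 (chr12:100110154-100123405, plus strand) codes for an ATPase that helps open the gate of the core. The highest zQ175:CK2a'(+/-) mouse lay below the lowest WT mouse, as did 3 of the 5 zQ175 mice and 2 of the 3 CK2a'(+/-) mice. The log2 fold change was -0.25 ± 0.0786 against WT (edgeR adjusted p = 0.354) and -0.18 ± 0.0786 against zQ175 (adjusted p = 0.754).

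Psmd4 was at 106, 80.6, 115, 103 and 104 CPM in the 5 WT mice and at 85.5, 88.8, 102, 88.2 and 82.6 CPM in the 5 zQ175 mice. It was at 73.6, 83.7 and 95.7 CPM in the 3 CK2a'(+/-) mice and at 87.2, 86.8, 78.5, 86.9 and 84.1 CPM in the 5 zQ175:CK2a'(+/-) mice. Psmd4 codes for a subunit that binds ubiquitin chains. WT replicate 2 was again the lowest of its group and inside the range of the zQ175:CK2a'(+/-) mice, 78.5 to 87.2 CPM. Against WT its log2 value differed by -0.26 ± 0.0897 (edgeR adjusted p = 0.392).

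Psmc3 was at 84.8, 75.5, 86.7, 92.2 and 93.4 CPM in the 5 WT mice and at 80.1, 75.5, 88.7, 79.4 and 84.2 CPM in the 5 zQ175 mice. It was at 72.8, 75.3 and 72.4 CPM in the 3 CK2a'(+/-) mice and at 73.7, 78.3, 84.0, 70.8 and 66.0 CPM in the 5 zQ175:CK2a'(+/-) mice. Psmc3 is an ATPase of the base. Its zQ175:CK2a'(+/-) values reached from the lowest of all mice up into the WT range. Against WT its log2 fold change was -0.22 ± 0.0765 (edgeR adjusted p = 0.400). The other 5 lower members were Psma2, Psma5, Psmb2, Psmb6 and Psmg3, with log2 fold changes from -0.53 for Psmg3 to -0.17 for Psma2 and adjusted p from 0.411 to 0.542. Psmg3, a chaperone of core assembly with few counts, averaged 5.89 ± 1.61 CPM in WT, 4.51 ± 0.527 in zQ175, 4.66 ± 2.05 in CK2a'(+/-) and 4.08 ± 0.485 CPM in zQ175:CK2a'(+/-) mice.

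By role, the medians against WT in zQ175:CK2a'(+/-) mice were -0.15 for the constitutive beta ring (6 of 7 lower), -0.13 for the alpha ring (7 of 7 lower), -0.14 for the ATPases (5 of 6 lower), -0.01 for the non-ATPase subunits (6 of 11 lower) and -0.31 for the core chaperones (3 of 4 lower). Both comparisons use the same 5 WT mice, so that a high or low WT mouse enters both, and their values stand side by side here without a test of likeness. The striatal projection neuron markers summed to 2661 to 3770 CPM in zQ175:CK2a'(+/-) mice, with all 10 lower than in WT mice on average and 5 at an unadjusted p under 0.05. The oligodendrocyte markers summed to 4016 to 5422 CPM, against 5399 to 7459 CPM in WT mice, with 3 of 6 lower at that threshold. The part of both in the result was not tested. Without WT replicate 2, 11 members were lower at an unadjusted p under 0.05, beside 6.5% of all genes, and the median was -0.150. Without WT replicate 4, 5 members were lower at that threshold, beside 5.03% of all genes, and 1 was higher, beside 4.48%. Without zQ175:CK2a'(+/-) replicate 2 the median was -0.065.

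**Figure D3:**
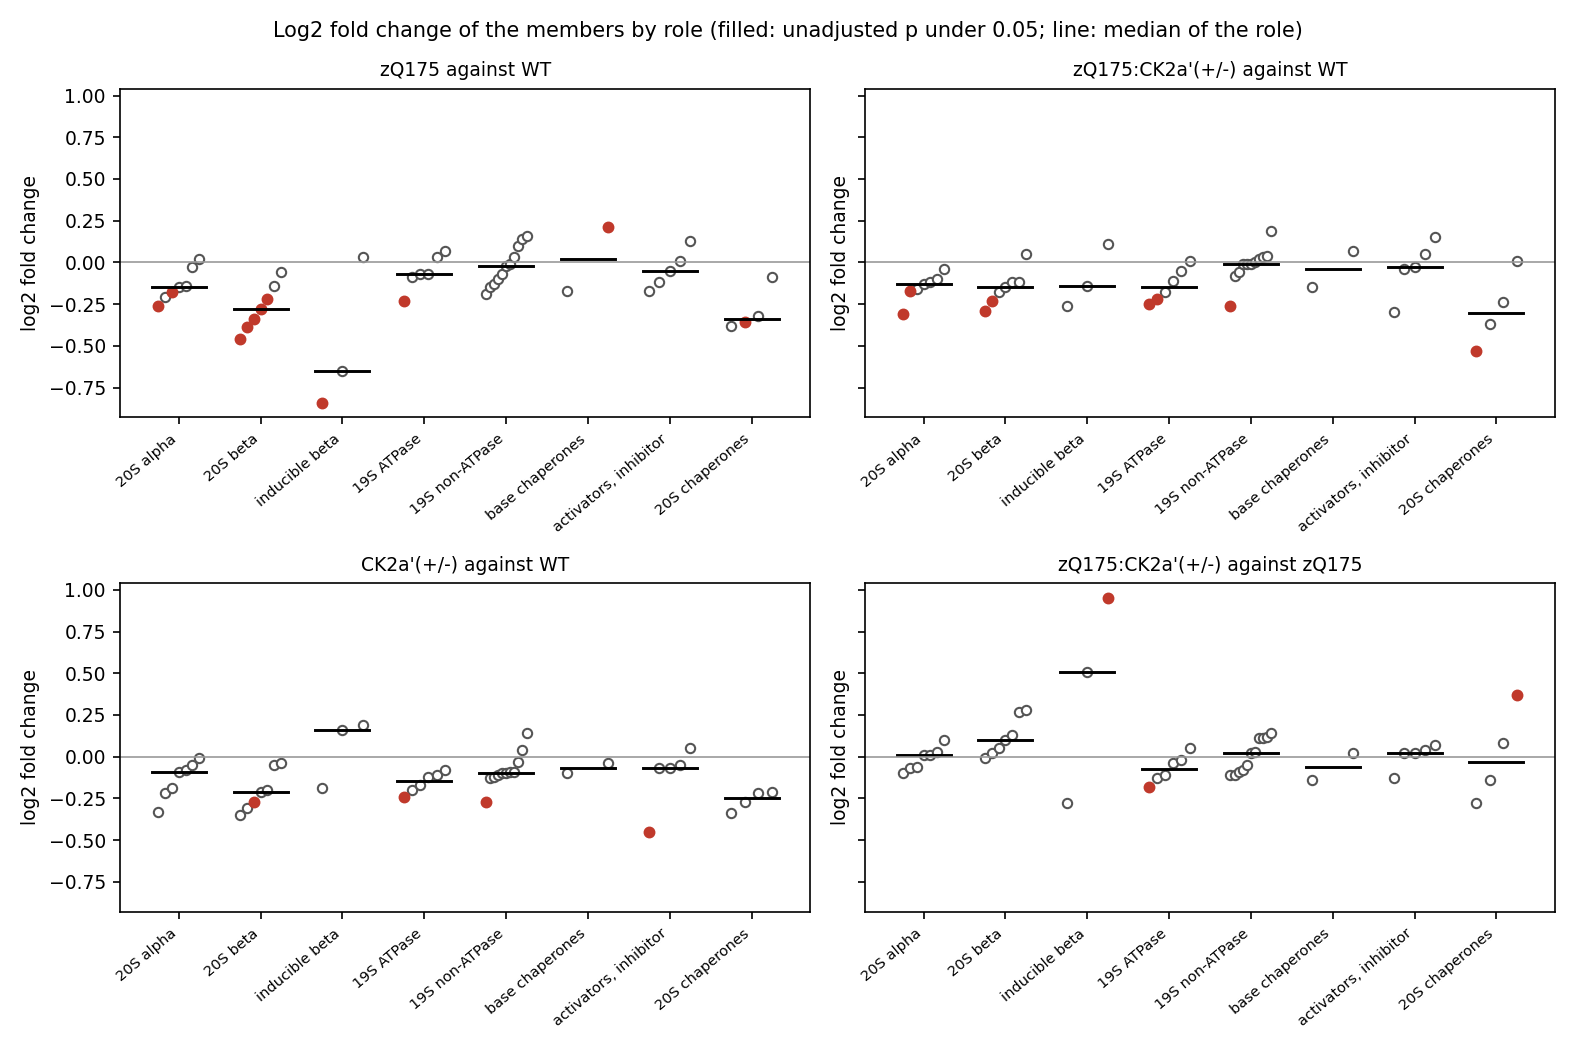
Log2 fold change of each tested member (points) by role in 4 comparisons, without Psmc3ip, filled where the unadjusted p was under 0.05, with the median of the role as a line. Against WT, the medians of all roles shown but the inducible subunits and the base chaperones lie below 0 in all 3 genotypes, and between the 2 zQ175 genotypes the medians of the roles shown lie from -0.08 to 0.10 except for the 3 inducible subunits at 0.51.

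The direct comparison of zQ175:CK2a'(+/-) with zQ175 mice asked what loss of the CK2a' allele adds within the HD model. The members were split, with 20 lower and 26 higher in zQ175:CK2a'(+/-) mice and a median of 0.017 against -0.005 for all genes. With edgeR 0 members passed, against 0.0143% of all genes, and with DESeq2 0 did, against 0.145% (39 genes) of those with an adjusted p. At an unadjusted p under 0.05, 1 member (2.17%) was lower, Psmc1, against 3.51% of all genes, and 2 (4.35%) were higher, Psmb8 and Psmg4, against 2.76%. The groups did not overlap in 1 member (2.17%), Psmc6, against 1.14% of all genes. These shares are close to those of all genes. Psmc6, singled out after its values were seen, is an ATPase of the base with an unadjusted p of 0.0891.

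Psmg4 was at 9.87, 7.26, 10.3, 10.8 and 9.27 CPM in the 5 WT mice and at 5.06, 7.47, 8.86, 6.4 and 9.2 CPM in the 5 zQ175 mice. It was at 7.12, 7.39 and 10.1 CPM in the 3 CK2a'(+/-) mice and at 10.1, 10.3, 9.61, 9.5 and 8.23 CPM in the 5 zQ175:CK2a'(+/-) mice. Psmg4, a chaperone that helps build the alpha ring, had its 2 lowest values of all mice in zQ175 replicates 1 and 4. The zQ175:CK2a'(+/-) mice lay inside the WT range, between 8.23 and 10.3 CPM. The log2 fold change was 0.37 ± 0.168 against zQ175 (edgeR adjusted p = 0.758) and, for zQ175 against WT, -0.36 ± 0.167 (adjusted p = 0.340).

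Of the constitutive beta ring, 6 of 7 had the higher mean in zQ175:CK2a'(+/-) than in zQ175 mice, with log2 fold changes from -0.01 (Psmb2) to 0.28 (Psmb3) around a median of 0.10. None of the 7 had an unadjusted p under 0.05 in this comparison, and the lowest edgeR adjusted p among them was 0.847. Of the 6 ATPases 5 had the lower mean, with a median of -0.08. Of the striatal projection neuron markers 9 of 10 had the higher mean in zQ175:CK2a'(+/-) mice, with a median of 0.22 and 0 at an unadjusted p under 0.05. All 6 tested cortical markers had the lower mean, with a median of -1.84 and 5 at that threshold, and DESeq2 called 3 of them (Slc17a7, Tbr1 and Slc30a3), with replicate 5 of the zQ175 mice contributing the highest sum. All 6 oligodendrocyte markers had the higher mean in zQ175:CK2a'(+/-) mice, with a median of 0.29 and 4 at an unadjusted p under 0.05, and so did 6 of 7 microglia markers, with a median of 0.22 and 4 at that threshold. Their part in the result was not tested. Without zQ175 replicate 5 the members' median was 0.011 and 2 members had an unadjusted p under 0.05, beside 5.95% of all genes. The median turned to -0.022 without zQ175:CK2a'(+/-) replicate 4 and to -0.008 with the Xist level, a stand-in for sex, as a covariate, and 1 member was at that threshold without zQ175 replicate 1, zQ175:CK2a'(+/-) replicate 2 or zQ175:CK2a'(+/-) replicate 4, beside 5.19% to 5.68%.

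The comparison of CK2a'(+/-) with WT mice asked what the loss of the allele goes with in the absence of the zQ175 allele. In the 3 CK2a'(+/-) mice 40 of 46 members (87%) had the lower mean, against 51.1% of all genes, with a median of -0.106 against -0.006. With edgeR 0 members passed, against 0.0143% of all genes, and with DESeq2 0 did, against 0.0293% (11 genes) of those with an adjusted p. At an unadjusted p under 0.05, 4 members (8.7%) were lower, against 2.49% of all genes, and 0 were higher, against 1.99%. The 4 were Psmc3, Psme1, Psmd4 and Psmb7. In 2 members (4.35%), Psmb2 and Psmc3, the groups did not overlap, against 3.2% of all genes. In Psmc3, whose values are given above, the highest CK2a'(+/-) mouse was at 75.3 CPM and the lowest WT mouse at 75.5 CPM, so that the gap was narrow.

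By role, the medians against WT in CK2a'(+/-) mice were -0.21 for the constitutive beta ring (7 of 7 lower), -0.09 for the alpha ring (7 of 7), -0.15 for the ATPases (6 of 6), -0.10 for the non-ATPase subunits (9 of 11) and -0.25 for the core chaperones (4 of 4). The 3 CK2a'(+/-) mice were unlike each other. In replicates 1 and 2, 40 and 38 of the 46 members lay below their mean over the 18 mice, whereas in replicate 3, 33 lay above it, and 6 members had their highest value of all mice there. Without replicate 3 the members' median was -0.196 and 11 members were lower at an unadjusted p under 0.05, beside 3.38% of all genes in that fit. Without replicate 1 the number lower was 1 (2.49% of all genes), and without WT replicate 2 it was 8 (3.57%). Replicate 3 had 15616338 counts, the fewest of its group, and 23.5% mitochondrial counts, against 20.4% and 21.6% in the other 2, and the part of depth or RNA quality was not tested. The striatal projection neuron markers, all 10 of them higher than in WT mice on average, summed to 4861 to 6812 CPM in the 3 mice, and their part was not tested either. The log2 fold changes of the 4 named members were -0.24 ± 0.0888 for Psmc3, -0.27 ± 0.104 for Psmd4, -0.27 ± 0.122 for Psmb7 and -0.45 ± 0.171 for Psme1, each with an edgeR adjusted p of 0.999.

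Psme1 was at 25.3, 14.2, 25.2, 23.3 and 23.1 CPM in the 5 WT mice and at 22.4, 21.4, 23.4, 17.7 and 22.5 CPM in the 5 zQ175 mice. It was at 14.0, 14.7 and 20.4 CPM in the 3 CK2a'(+/-) mice and at 23.5, 21.3, 17.8, 24.3 and 21.8 CPM in the 5 zQ175:CK2a'(+/-) mice. Psme1 (chr14:55578123-55581529, plus strand) codes for a subunit of the activator ring that interferon induces. WT replicate 2 and CK2a'(+/-) replicates 1 and 2 were the lowest mice, near 14 CPM, and all others were at 17.7 CPM or more.

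Psme2 was at 8.77, 5.86, 8.31, 8.93 and 8.57 CPM in the 5 WT mice and at 5.25, 11.0, 5.66, 7.45 and 6.61 CPM in the 5 zQ175 mice. It was at 6.77, 8.57 and 8.14 CPM in the 3 CK2a'(+/-) mice and at 4.95, 7.9, 5.02, 5.47 and 9.62 CPM in the 5 zQ175:CK2a'(+/-) mice. Psme2 (chr14:55587441-55591113, minus strand), its partner subunit, lies beside Psme1 on the chromosome. WT replicate 2 was also the lowest WT mouse for Psme2, and both HD groups spanned the whole WT range. The group means were 8.09 ± 1.26 CPM in WT, 7.20 ± 2.30 in zQ175, 7.83 ± 0.944 in CK2a'(+/-) and 6.59 ± 2.08 in zQ175:CK2a'(+/-) mice.

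The interaction asked whether the difference between zQ175:CK2a'(+/-) and CK2a'(+/-) mice departs from that between zQ175 and WT mice. For 34 of 46 members the interaction was above 0, with a median of 0.147 against -0.002 for all genes. Cell type markers differed here too, with all 6 oligodendrocyte markers above 0 (median 0.29), 6 of 7 microglia markers above 0 (median 0.26, 3 at an unadjusted p under 0.05) and 5 of 6 cortical excitatory neuron markers below 0 (median -1.77, 3 at that threshold), and their part in the result was not tested. With edgeR 0 members passed, against 0.00478% of all genes, and with DESeq2 0 did, against 0.103% (19 genes) of those with an adjusted p. At an unadjusted p under 0.05, 3 members (6.52%) were higher, against 2.91% of all genes, and 0 were lower, against 2.48%. They were Psmb5 (0.62 ± 0.247), Psmb3 (0.59 ± 0.256) and Psmg4 (0.58 ± 0.256), each with an edgeR adjusted p of 0.916. A positive value here means that with both changes together these transcripts were higher than the sum of the separate differences. The median over the 7 constitutive beta subunits was 0.26, with all 7 above 0. Without CK2a'(+/-) replicate 3 the median of all members was 0.220 and 11 members were higher at an unadjusted p under 0.05, beside 3.59% of all genes in that fit, and with the Xist level as a covariate the median was 0.078 and 0 were, beside 2.49%. The 3 members at that threshold went to 6 without WT replicate 2 and to 5 without zQ175:CK2a'(+/-) replicate 3, and to 1 without WT replicate 3, CK2a'(+/-) replicate 1 or CK2a'(+/-) replicate 2, in fits where 2.31% to 3.64% of all genes were higher at that threshold.

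Summarised by mouse, the median deviation of the 46 members from their means over all mice was 0.101, -0.045, 0.067, 0.124 and 0.133 (log2) in the 5 WT mice. It was -0.083, 0.051, 0.012, -0.010 and -0.062 in the zQ175 mice, -0.130, -0.115 and 0.105 in the CK2a'(+/-) mice and 0.005, -0.002, -0.052, 0.086 and -0.074 in the zQ175:CK2a'(+/-) mice. The same median over all tested genes lay between 0.004 and 0.020 in every mouse, as centring and TMM scaling hold it near 0 by construction. Except for replicate 2, the WT mice were at or near the top, and CK2a'(+/-) replicate 3 and zQ175:CK2a'(+/-) replicate 4 lay among them. For the 7 constitutive beta subunits alone, 4 of 5 WT mice lay between 0.162 and 0.276 and 4 of 5 zQ175 mice between -0.198 and -0.116, with WT replicate 2 at -0.052 and zQ175 replicate 2 at 0.060. These summaries carry no test, since the genes were chosen as a list with earlier results known.

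**Figure D4:**
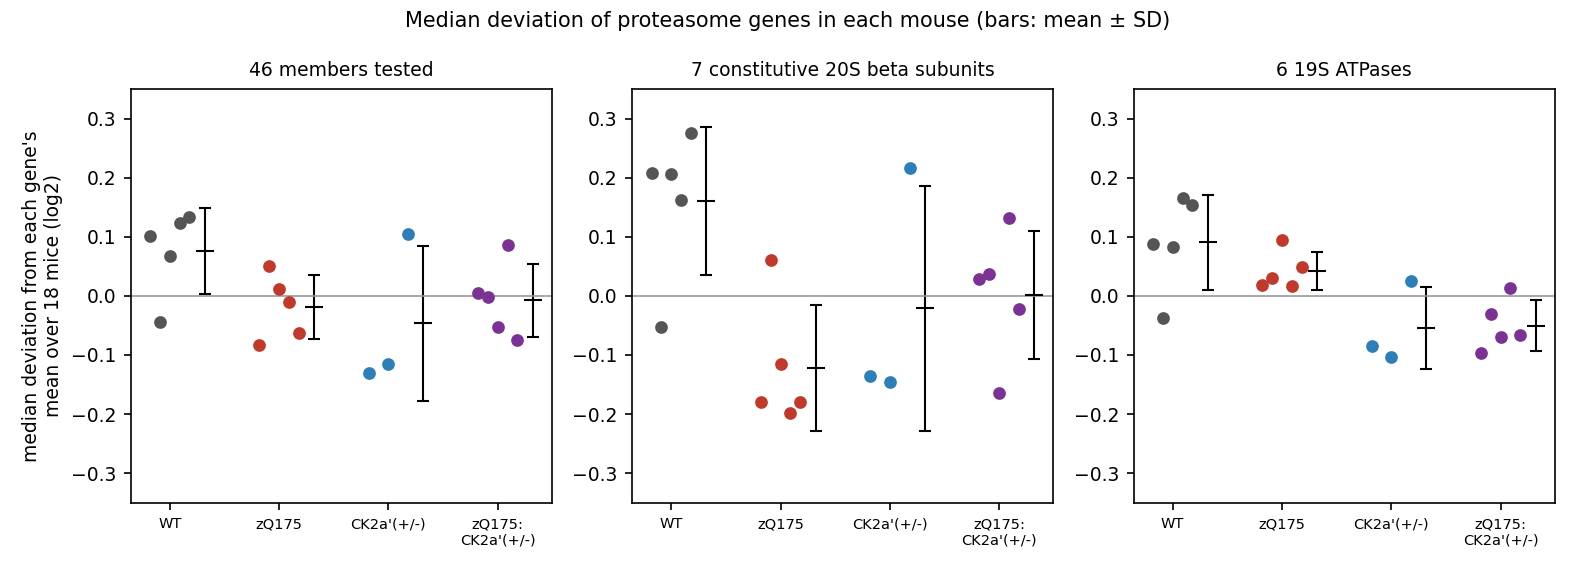
Median deviation (log2) of the 46 tested members, of the 7 constitutive beta subunits and of the 6 ATPases from their means over 18 mice, 1 point per mouse, with mean ± SD per group. WT mice other than replicate 2 lie above 0 in all 3 panels, and CK2a'(+/-) replicate 3 lies apart from replicates 1 and 2.

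Within groups, the members varied together to a limited degree. After each group mean was removed, the median Pearson correlation over the 1035 pairs of members was 0.197 over the 18 mice, and 71.1% of pairs were positive, against a median of -0.00451 and 49.4% for pairs of a member with another gene. In the constitutive beta ring the median over 21 pairs was 0.432 and all were positive, while among the 15 pairs of ATPases it was 0.00867 and among the 10 pairs of the activators and inhibitor -0.124. The most alike pairs were Psma7 with Psmb4 (0.843), Psma4 with Psmb1 (0.839) and Psmd4 with Psme1 (0.837). The most opposed was Psmc1 with Psme4, the gene of a large single-chain activator (-0.847). These values are descriptions over the same 18 libraries, which share depth and composition.

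Exon length went with the differences among the members. Across the 46 members, whose exons sum from 555 bases in Psmg4 to 8382 in Psme4, the log2 fold change between zQ175 and WT mice had a Pearson correlation of 0.326 and a Spearman correlation of 0.368 with log2 length, the shorter genes being lower. The same values were 0.414 and 0.504 for zQ175:CK2a'(+/-) against WT and 0.332 and 0.371 for CK2a'(+/-) against WT. Over all 20914 genes tested, the Pearson correlations in these comparisons were 0.0739, 0.0769 and 0.0606 and the Spearman correlations 0.154, 0.133 and 0.0871. The 3 comparisons share the WT mice, genes are not independent replicates, and the part of length or RNA quality in the differences was not tested.

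The inducible subunits were compared with the constitutive ones that they replace, each scaled by exon length within a library. Psmb8 was at 3.84, 1.4, 3.88, 2.44 and 2.97 CPM in the 5 WT mice and at 1.5, 0.637, 2.4, 2.57 and 1.02 CPM in the 5 zQ175 mice. It was at 1.36, 3.89 and 4.67 CPM in the 3 CK2a'(+/-) mice and at 3.6, 2.37, 3.31, 4.14 and 2.22 CPM in the 5 zQ175:CK2a'(+/-) mice. Psmb8 (chr17:34197721-34201454, plus strand) replaces Psmb5 and lies in the major histocompatibility region, where 14.7% of its exon bases overlap another annotated gene on the opposite strand. The zQ175 mice held the 2 lowest values, and CK2a'(+/-) replicate 3 the highest. The log2 fold change was -0.84 ± 0.384 for zQ175 against WT (edgeR adjusted p = 0.335) and 0.95 ± 0.385 for zQ175:CK2a'(+/-) against zQ175 (adjusted p = 0.697).

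Per length, Psmb8 was 2.8% to 8.71% of Psmb5 in WT mice, 1.12% to 5.76% in zQ175, 2.89% to 9.99% in CK2a'(+/-) and 3.51% to 6.94% in zQ175:CK2a'(+/-) mice. The length sums all annotated exons of a gene, 3381 bases for Psmb8 and 899 for Psmb5. It was 3660 for Psmb9 and 1872 for Psmb6, and 1705 for Psmb10 and 3421 for Psmb7. The percentages of all 3 ratios therefore depend on the annotation and are not proportions of molecules. The mean log2 ratio was 0.57 lower in zQ175 than in WT mice, a difference of -0.57 (exact two-sided permutation test, p = 0.341, adjusted p = 0.883 over 12 tests), and 0.81 higher in zQ175:CK2a'(+/-) than in zQ175 mice (exact p = 0.119, adjusted p = 0.883). The smallest p these exact tests allow is 0.00794 for 5 against 5 mice and 0.0179 for 5 against 3.

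Psmb9 was at 0.449, 0.503, 0.204, 0.222 and 1.57 CPM in the 5 WT mice and at 0.422, 0.521, 0.553, 0.396 and 0 CPM in the 5 zQ175 mice. It was at 0.555, 0.175 and 0.868 CPM in the 3 CK2a'(+/-) mice and at 0.394, 1.29, 0.122, 0.849 and 0.0601 CPM in the 5 zQ175:CK2a'(+/-) mice. Psmb9, which replaces Psmb6, was at the edge of detection, with 165 counts over all 18 libraries. In zQ175 replicate 5 it had no count, which allows a level of up to 0.161 CPM by 3 counts, for counting error only. WT replicate 5 and zQ175:CK2a'(+/-) replicate 2 were the highest mice. The ratio of Psmb9 to Psmb6, with a pseudocount of 0.5, had a median of 0.482% in WT, 0.611% in zQ175, 0.743% in CK2a'(+/-) and 0.524% in zQ175:CK2a'(+/-) mice, and no comparison had an exact p under 0.738.

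Psmb10 was at 7.28, 2.9, 5.17, 6.31 and 6.07 CPM in the 5 WT mice and at 6.42, 7.94, 5.9, 3.83 and 4.19 CPM in the 5 zQ175 mice. It was at 4.24, 5.16 and 9.34 CPM in the 3 CK2a'(+/-) mice and at 4.73, 5.24, 3.86, 4.94 and 4.51 CPM in the 5 zQ175:CK2a'(+/-) mice. Psmb10, which replaces Psmb7, was the most abundant of the inducible genes. Its ratio to Psmb7 had a median of 29.1% in WT, 35.7% in zQ175, 33.4% in CK2a'(+/-) and 26.3% in zQ175:CK2a'(+/-) mice, with exact p from 0.25 to 0.810 in the 4 comparisons. The groups overlapped in every ratio, and the lowest adjusted p over the 12 tests was 0.883.

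**Figure D5:**
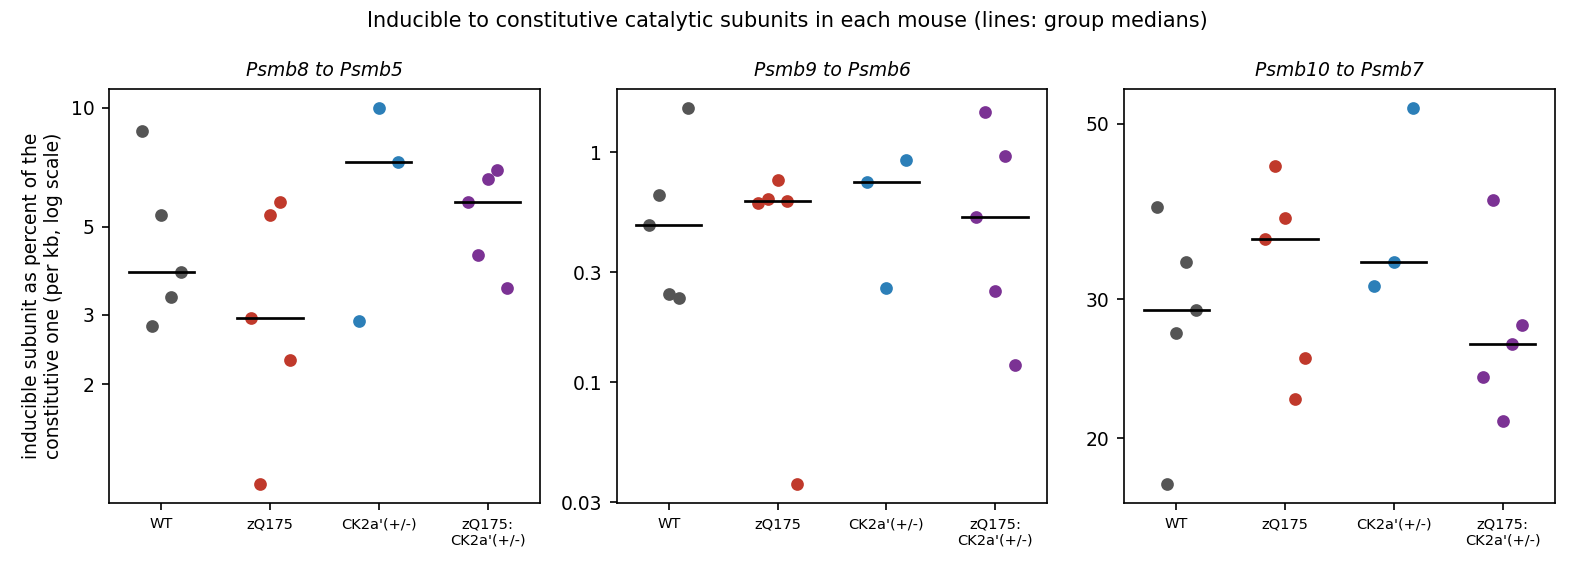
Length-scaled level of each inducible catalytic subunit as a percent of the constitutive subunit it replaces, on log axes, 1 point per mouse with the group median as a line. The 4 groups overlap in all 3 ratios, and the value of 0.0361% for Psmb9 in zQ175 replicate 5 comes from a count of 0 with a pseudocount of 0.5.

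Genes around the proteasome were read from lists fixed with the members. Of 16 partners without a Psm symbol, 0 passed an adjusted p under 0.1 in any comparison with edgeR or DESeq2, and between zQ175 and WT mice 2 were lower at an unadjusted p under 0.05, Pomp and Sem1. For all lists around the proteasome, the shares of all genes at that threshold are 7.1% lower and 6.79% higher between zQ175 and WT mice, and 3.51% and 2.76% between zQ175:CK2a'(+/-) and zQ175 mice. Pomp, the maturation factor of the core, averaged 45.3 ± 5.04 CPM in WT, 37.8 ± 3.78 in zQ175, 42.6 ± 4.78 in CK2a'(+/-) and 40.7 ± 3.79 CPM in zQ175:CK2a'(+/-) mice, with a log2 fold change of -0.26 ± 0.0989 between zQ175 and WT (adjusted p = 0.238). Adrm1, a ubiquitin receptor of the 19S particle, averaged 40.4 ± 4.46, 35.9 ± 2.58, 38.1 ± 3.47 and 38.0 ± 3.72 CPM in the same order.

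Of 9 regulators, 0 passed in any comparison with edgeR or DESeq2. Nfe2l1, the factor that can raise subunit genes together, averaged 183 ± 15.6 CPM in WT, 172 ± 16.8 in zQ175, 181 ± 6.10 in CK2a'(+/-) and 176 ± 7.15 CPM in zQ175:CK2a'(+/-) mice, and its log2 fold change between zQ175 and WT was -0.08 ± 0.0748 (adjusted p = 0.663). Between zQ175 and WT mice 1 regulator was higher at an unadjusted p under 0.05, the protease gene Ddi2 that cuts Nfe2l1, and 1 was lower, the small Maf gene Maff. Of 11 ubiquitin genes and enzymes 0 passed in any comparison with edgeR, and 3 did with DESeq2 between zQ175 and WT mice (Rps27a, Ube3a and Stub1), with 3 lower and 1 higher at an unadjusted p under 0.05 between zQ175 and WT mice. The 3 lower ones were Ubb, Rps27a and Stub1, and the higher one was the ligase gene Ube3a, at an adjusted p of 0.105. Of 16 genes of antigen presentation and interferon 0 passed with edgeR and 1, B2m, with DESeq2 between zQ175 and WT mice, with Tapbp, B2m and H2-K1 lower at an unadjusted p under 0.05 between zQ175 and WT mice, and B2m, Tapbp and Nlrc5 higher in zQ175:CK2a'(+/-) than in zQ175 mice. The summed level of this list was 101 to 129 CPM in zQ175, 121 to 147 in WT, 129 to 146 in CK2a'(+/-) and 130 to 166 CPM in zQ175:CK2a'(+/-) mice, with 129 CPM in the highest zQ175 and 130 CPM in the lowest zQ175:CK2a'(+/-) mouse. Among single genes, 1.14% did not overlap between these 2 groups, which is not the rate for a sum over 16 genes, and that rate was not computed. Microglia markers were higher in the same direction, as given above for 6 of 7, with C1qa at a log2 fold change of 0.46, Cx3cr1 at 0.30 and Csf1r at 0.21, and their part was not tested.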

How the data were processed

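RNA from flash-frozen striatum was sequenced with 1 library per mouse. The deposited values were raw counts per Ensembl gene, which the authors made by trimming reads with Trimmomatic, aligning them to GRCm38 with HISAT2 2.1.0, discarding reads that did not map, mapped more than once or mapped with low quality, and counting with Subread 1.6.2. The strand setting of the counting was not given in the sources used here, so that reads of genes overlapping on opposite strands cannot be told apart. The deposited table also gave exon length, another column used to scale levels. Column codes were matched to the labels through the study's own abbreviations, and each sample's group came from its label. Replicates are separate mice.

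Counts were tested with edgeR 4.0.16 (R 4.3.3; TMM scaling, filterByExpr, quasi-likelihood test over all 18 libraries with genotype as the only term). p-values were adjusted by Benjamini-Hochberg over the 20914 genes tested, and a gene passed at an adjusted p under 0.1. Genes not tested held 0.0985% of the counts. CPM values were TMM-scaled, and 0.1 was added before log2. DESeq2 1.42.0 was an alternative. The edgeR script was tested on simulated data. Ratios were compared with exact two-sided permutation tests, with a pseudocount of 0.5 counts for Psmb9 to Psmb6 because of a count of 0. Members given with every mouse were the catalytic subunits and their inducible counterparts, Psme1 and Psme2, and the 3 members with the smallest p under 0.05 in each comparison. The genes with the highest and lowest length-scaled level of each role are given with group means, and from the other lists the genes that passed (at most 3 by p) with Nfe2l1, Pomp and Adrm1. 1 gene that this rule would name is not reported here. Other names were chosen after their values were seen. The members and lists were chosen with earlier results of these data known. Library totals of 13612381 to 22702547 counts limit the precision of low genes such as Psmb9.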

Additional observations from a re-analysis of the deposited data

Results flagged for a closer look

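Among 45 groups of 5 mice examined for a single mouse far from the others, 4 values stood out by Dixon's criterion, which chance meets in about 1 in 20 groups. Psmb9 was at 1.58 CPM in WT replicate 5, against 0.204 to 0.503 CPM in the other WT mice. Psmb9 was at 0 CPM in zQ175 replicate 5, against 0.396 to 0.553 CPM in the other zQ175 mice. Psme1 was at 14.2 CPM in WT replicate 2, against 23.1 to 25.3 CPM in the other WT mice. Psme2 was at 5.86 CPM in the same mouse, against 8.31 to 8.93 CPM in the other WT mice.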

How the results depend on the processing

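Without WT replicate 2 the number of members that passed between zQ175 and WT mice was 2 (range 0 to 2 over single libraries left out), with DESeq2 it was 1, and in the other comparisons it was 0 under every alternative run. These were DESeq2, its size factors, no low-count filter, only the 2 groups compared (not for the interaction), Xist as a covariate, an adjusted p under 0.05, and each library left out. With single libraries left out, the median between CK2a'(+/-) and WT mice ranged from -0.196 (without CK2a'(+/-) replicate 3) to -0.085. The other medians ranged from -0.163 to -0.081 for zQ175 against WT, from -0.150 to -0.065 for zQ175:CK2a'(+/-) against WT, from -0.022 to 0.030 for zQ175:CK2a'(+/-) against zQ175 and from 0.098 to 0.220 for the interaction. With Xist as a covariate the medians were -0.076 for CK2a'(+/-) against WT, -0.008 for zQ175:CK2a'(+/-) against zQ175, where the main value was 0.017, and 0.078 for the interaction. Of the medians under alternatives, 118 moved by less than the spread between mice (pooled SD 0.0857) and 1 by more. That spread is near the size of the medians against WT, and the refits share most of their libraries. The tally therefore cannot show that the medians are stable. The log2 ratio differences that turned sign when single libraries were left out ranged, for Psmb9 to Psmb6, from -0.69 to 0.41 (zQ175 against WT), from -0.48 to 0.44 (zQ175:CK2a'(+/-) against WT), from -0.47 to 0.86 (zQ175:CK2a'(+/-) against zQ175) and from -0.16 to 0.77 (CK2a'(+/-) against WT), and, for Psmb10 to Psmb7, from -0.23 to 0.06 (zQ175:CK2a'(+/-) against WT). The cause was not tested. Psmb9, with 165 counts in all, is limited by depth.

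Libraries of different groups share a replicate number only. Over 24 same-numbered pairs the correlation of deviations ran from -0.134 to 0.119 and was over 0.1 in 2. With the replicate number as a block, 0 members passed in each comparison. The values that follow are in the order zQ175, zQ175:CK2a'(+/-) (both against WT), zQ175:CK2a'(+/-) against zQ175, CK2a'(+/-) against WT and interaction. An unadjusted p under 0.05 was held by 9, 7, 3, 4 and 2 members, beside 12.8%, 8.66%, 5.59%, 3.39% and 4.28% of all genes. The medians were -0.106, -0.105, 0.015, -0.098 and 0.131.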
